A study of Schizosaccharomyces pombe with 8 samples.

Results

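Of 759 fission yeast genes that are known only by a systematic id such as SPBC146.02, 61 had a mean log2 ratio of at least 1, that is 2-fold, after treatment with mating pheromone. A gene was taken when it had a value on all 3 arrays of a time course and its mean over 2, 4 and 6 h reached that level with M-factor or with P-factor. M-factor chose 53 of the 61 and P-factor chose 29, with 21 chosen by both, 32 by M-factor alone and 8 by P-factor alone. Of the 32, 3 had no complete P-factor course. The time course values of a pheromone that chose a gene are therefore given as a description, without a test. Among genes with a symbol, 347 of 3880 with a complete course (8.94%) met the same rule, against 61 of 740 unnamed genes (8.24%). Over all genes with a complete course, 7.5% had a mean of at least 1 with M-factor against 5.32% with P-factor. By their ids, 33 of the 61 lie on chromosome I, 17 on II and 11 on III, and RefSeq lists 60 as protein coding and SPCP20C8.03 as a pseudogene.

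In fission yeast, P cells secrete P-factor and sense M-factor, and M cells do the reverse. Each pheromone binds a receptor on the partner cell, which acts through the G protein alpha subunit Gpa1 and the MAP kinase cascade Byr2, Byr1 and Spk1 on Ste11, an HMG-box transcription factor that switches on mating and meiotic genes through short promoter elements (TR boxes). Nutrients hold Ste11 back through cAMP, which is made by adenylate cyclase, the product of cyr1.

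P cells (h+ cyr1-) received synthetic M-factor and M cells (h- sxa2- cyr1-, written sax2- in the labels) received synthetic P-factor, both at 1 μg/ml in exponential growth in MSL minimal medium. RNA of 2, 4 and 6 h was hybridised against untreated RNA of the same strain, 1 array for each time, and a further array each set M against P cells without pheromone and after 6 h of it. All these cells, controls included, carried the cyr1 disruption, which lets them respond without starvation, a ura4 mutation and a deletion of silent mating-type loci marked with LEU2. The M cells alone were mutated in sxa2, the gene for a protease that degrades P-factor, so cell type and sxa2 cannot be told apart. Each cell type was 1 strain, and the labels name no separate cultures, so the 3 time points of a course stand in for replicates and share their untreated reference, and p-values measure only the spread between these arrays.

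The Ste11 element was looked at first, because the study printed 1 upstream match to it for each of 21 of the 61 genes. That match is the best putative site of the gene's upstream intergenic region, not a site at a fixed place. The motif searched for is the Ste11 site as the study writes it. Its 10 letters are the capitals in the SPBC146.02 sequence shown here, or in reverse complement those in the SPBC405.02c sequence, read on both strands. Its core AACAAAG is the first 7 of those letters. The match was exact in 4 of the 21, had 1 mismatch in 9 and had 2 in 8, and 9 of the 21 held the core. The other 140 genes with a printed match in the same table, which the study had picked for induction, held an exact site in 30 cases (21.4%) and the core in 41.4% (against 42.9% here). The share of all promoters with such a site was not analysed here, and a match is a description of letters, not of binding. The sequences shown are the 4 exact sites and those of the 6 other genes with the largest means in either course that have a printed match. Each is written as the study printed it, with the 10 letters of the match in capitals.
SPBC146.02 (exact): catgAACAAAGAAAcctt
SPAC22A12.17c (exact): gatcAACAAAGAAAcgtc
SPBP4H10.12 (exact): ggagAACAAAGAAAtatg
SPBC405.02c (exact, reverse complement): tatcTTTCTTTGTTccat
SPAC513.04 (1 mismatch, reverse complement, core present): gtgaTCTCTTTGTTcatt
SPBC337.02c (1 mismatch, reverse complement, core present): tagcATTCTTTGTTtaaa
SPAC4F10.17 (1 mismatch): taacAACAAATAAAgcat
SPAC4G9.19 (1 mismatch): tgcaAACAAACAAAaaac
SPBC3H7.08c (1 mismatch, reverse complement): cattTTTATTTGTTtgcg
SPBC354.04 (2 mismatches, reverse complement): ttttTTACTTTTTTttcc

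SPBC354.04, which had the largest mean with P-factor, stood beside a weaker match than SPBC146.02, which had the largest mean with M-factor and an exact site. The 4 genes with exact sites had M-factor means between 1.84 and 3.99 and P-factor means between 0.71 and 2.63.

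Of the markers of M cells, mam1, mam2 and mam4 were 0.92 to 2.15 higher (log2) in untreated M than P cells and mam3 and sxa2 0.47 and 0.23, and after 6 h all 5 were 1.67 to 3.05 higher. Of the P markers, map2 and map3 were lower in M cells on both arrays (-3.53 to -1.23), and map4 stood at 0.07 and 0.06. The sxa2 spots stood at 8.37, 9.36 and 6.27 with P-factor in the strain labelled sxa2-, so they read RNA from this locus there and do not check its allele. The direction M over P is that of the labels; the study's gene table heads the untreated ratio as P over M. The medians of the 8 arrays were -0.03 to 0.04. The median SD of the spots of a gene was 0.19 to 0.34 on the time course arrays and 0.07 on the M over P arrays. The P-factor 2 h array lacked a value for 3552 of 11520 spots, against 68 to 1103 on the others. The values hold no intensities, so how far a spot stood over background cannot be given, and precision is set by how many arrays there are.

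With M-factor the 53 genes chosen by it had means of 1.00 to 3.99, with a median of 1.34. The median log2 ratio was 1.28 at 2 h, 1.33 at 4 h and 1.45 at 6 h, and all 53 were above 0 at each time. At least 2-fold was reached at each of the 3 times by 30 of the 53, which the rule favours (4.25% over all genes, and 56.6% over all genes with an M-factor mean of at least 1, which is also the share of the 53). The list thins out quickly from the top, with 7 genes at a mean of 2 or more and 20 between 1 and 1.2.

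**Figure D1:**
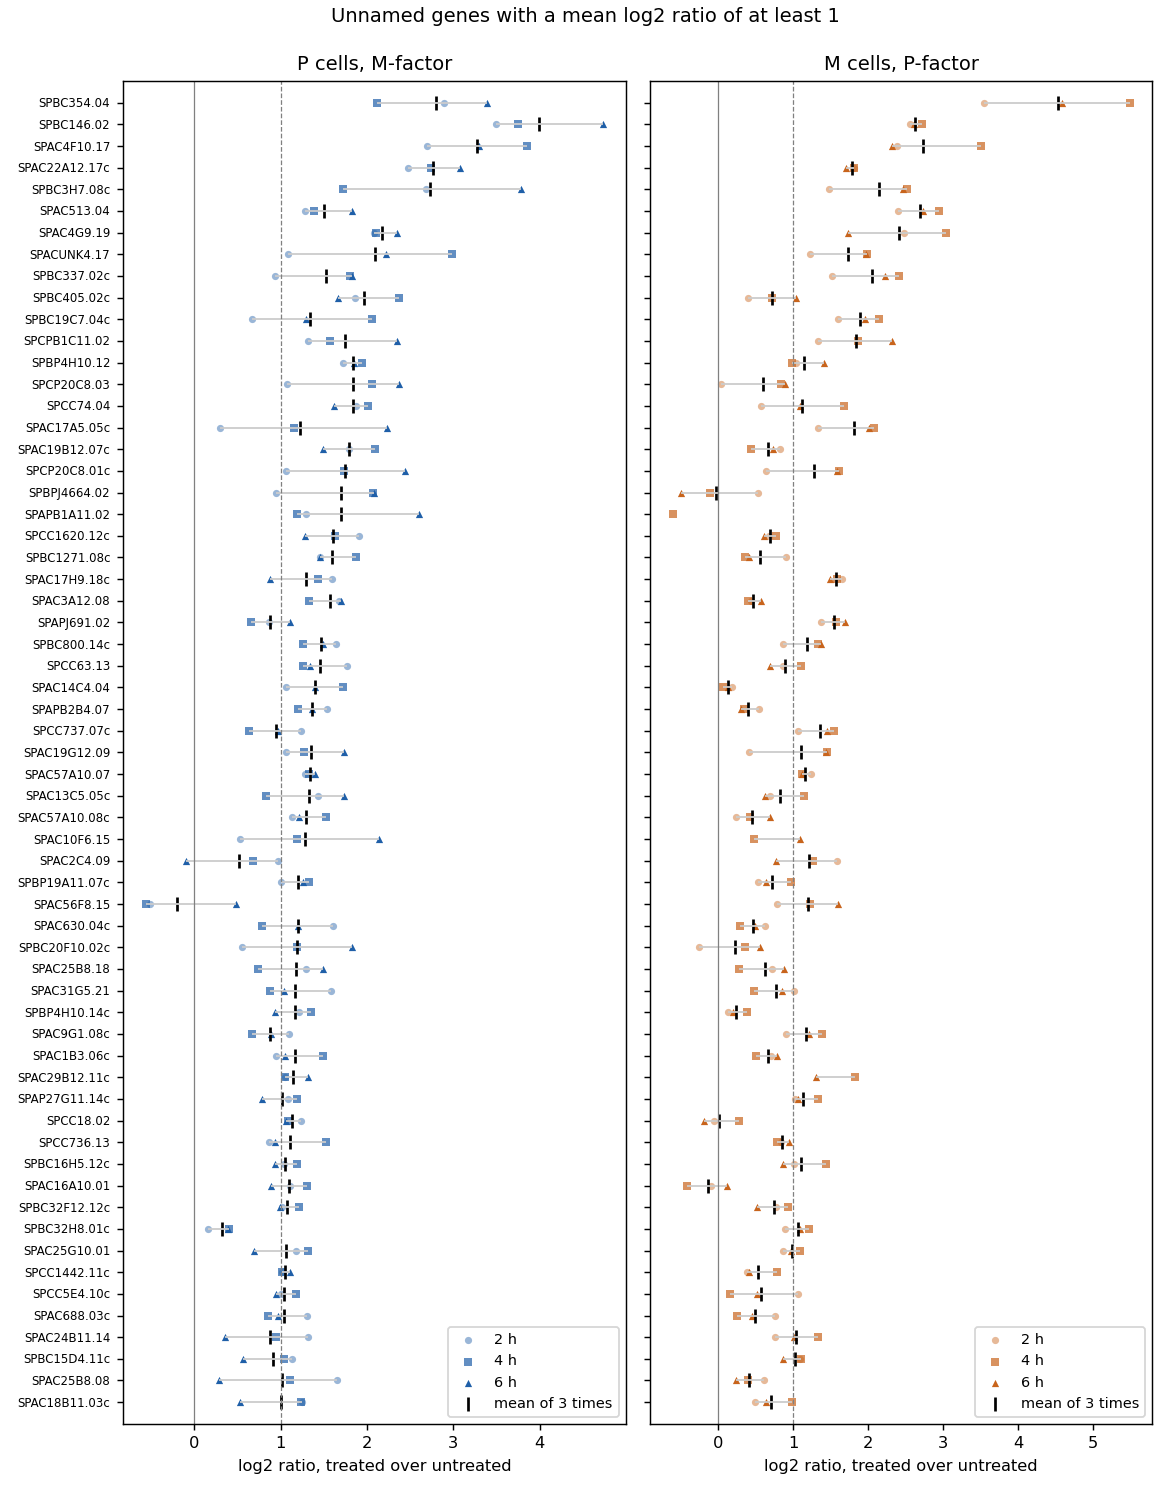
Log2 ratio of treated over untreated RNA (x axis) of each of the 61 genes (y axis, ordered by the larger of the 2 means), with M-factor in P cells on the left and P-factor in M cells on the right; circles, squares and triangles are the 2, 4 and 6 h arrays, the bar is their mean, and the dashed line is 2-fold. SPBC354.04 and SPBC146.02 stand apart at the top, and from about the middle down many genes chosen with M-factor lie left of the dashed line with P-factor; no mean is drawn for the 3 genes without a complete P-factor course.

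Sequence orphans, genes whose proteins resemble no other, included both of the strongest genes. SPBC146.02 stood at 3.50, 3.75 and 4.73 at 2, 4 and 6 h of M-factor, a mean of 3.99, and at 2.55, 2.71 and 2.61 with P-factor, a mean of 2.63. SPBC354.04 stood at 2.89, 2.12 and 3.39 with M-factor and at 3.54, 5.49 and 4.58 with P-factor, with means of 2.80 and 4.54. Their courses do not overlap, and they run opposite ways: every M-factor array was the higher in SPBC146.02 and every P-factor array in SPBC354.04. SPAC513.04 was also higher at each P-factor time, at 2.39, 2.94 and 2.74 against 1.29, 1.38 and 1.83 with M-factor. SPBC405.02c was the reverse, at 1.86, 2.37 and 1.66 with M-factor against 0.39, 0.72 and 1.03 with P-factor. The fifth orphan, SPBC1271.08c, had means of 1.59 and 0.56 with M-factor and P-factor. Of the 5 orphans, 3 were chosen by both pheromones and 2 by M-factor alone.

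Of the proteins listed as conserved or hypothetical, all 6 were chosen by both pheromones, which the choice of genes for the study's table favours. SPAC4F10.17, listed as a hypothetical protein, stood at 2.69, 3.85 and 3.29 with M-factor against 2.38, 3.50 and 2.31 with P-factor, highest at 4 h in both courses. SPBC3H7.08c, conserved in fungi, stood at 2.68, 1.73 and 3.79 with M-factor against 1.47, 2.51 and 2.46 with P-factor, so its courses overlapped and its lowest M-factor time was 4 h. SPBC19C7.04c, conserved in yeasts, stood at 0.67, 2.06 and 1.29 and at 1.60, 2.14 and 1.95. It lies next to cyr1, the gene disrupted in both strains, and whether the disruption touches its ratios was not tested. SPBP4H10.12, conserved in fungi and bacteria, was steady at 1.73, 1.94 and 1.85 with M-factor and at 1.04, 0.98 and 1.40 with P-factor. The other 2, SPBC800.14c and SPAC57A10.07, had means of 1.46 and 1.33 with M-factor against 1.19 and 1.16 with P-factor.

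Of the genes with a named domain or enzyme class, 2 had a mean of at least 2 in a course. SPAC22A12.17c, a short chain dehydrogenase, stood at 2.48, 2.74 and 3.08 with M-factor against 1.81, 1.81 and 1.71 with P-factor, without overlap between the courses. SPAC4G9.19, a DNAJ domain protein of the class that acts with Hsp70 chaperones, stood at 2.08, 2.10 and 2.35 with M-factor against 2.47, 3.03 and 1.73 with P-factor, so its courses overlapped. The second DNAJ protein, SPCC63.13, had a mean of 1.45 with M-factor against 0.89 with P-factor. The amino acid permease family, which carries amino acids across membranes, gave SPCPB1C11.02, at 1.32, 1.57 and 2.35 with M-factor against 1.33, 1.87 and 2.32 with P-factor. Its relative SPCC74.04 stood at 1.87, 2.01 and 1.62 with M-factor against 0.57, 1.68 and 1.09 with P-factor. By the means of spots, SPCPB1C11.02 was thus nearly equal in both courses and highest at 6 h in each. SPCC74.04 was highest at 4 h in each. Single spots with M-factor did not all follow. In SPCPB1C11.02, 1 spot was highest at 4 h (2.68, against 2.40 at 6 h) and the other stood at 0.46 at 4 h. In SPCC74.04, 1 spot was highest at 2 h (2.22, against 1.52 at 4 h). The zinc finger protein SPAC19B12.07c had means of 1.79 and 0.66 with M-factor and P-factor. The yippee-like protein SPAPJ691.02 and the DEAD/DEAH box helicase SPCC737.07c, of a class that unwinds nucleic acids, were chosen by P-factor alone, with means of 1.54 and 1.35 there and 0.88 and 0.95 with M-factor.

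SPBC337.02c, called a pseudogene in the study's table and protein coding by RefSeq, stood at 0.94, 1.80 and 1.82 with M-factor against 1.52, 2.40 and 2.23 with P-factor. SPAC17H9.18c, called dubious, stood at 1.59, 1.43 and 0.88 with M-factor against 1.65, 1.58 and 1.49 with P-factor. It overlaps cdt2, which had means of 1.55 and 0.74, and the double-stranded PCR products on these arrays do not tell the strands apart.

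For the remaining 40 genes no product was found in the sources used here. Both pheromones chose 6 of them, M-factor alone 28 and P-factor alone 6. They are the genes absent from the study's table of induced genes, so this split cannot be set against the groups above. SPACUNK4.17 had the largest M-factor mean among them, at 1.08, 2.99 and 2.22 with M-factor against 1.23, 1.98 and 1.96 with P-factor, lowest at 2 h in both courses. SPAC17A5.05c stood at 0.29, 1.15 and 2.23 with M-factor and already at 1.33, 2.07 and 2.01 with P-factor. SPCP20C8.03, the RefSeq pseudogene, stood at 1.07, 2.05 and 2.37 with M-factor against 0.04, 0.84 and 0.89 with P-factor. SPAPB1A11.02 had an M-factor mean of 1.70 that came from 1 spot at 2 and 4 h and the other spot at 6 h, and its one P-factor value was -0.61.

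With P-factor the 29 genes chosen by it had means of 1.02 to 4.54, with a median of 1.35. The median log2 ratio was 1.23, 1.58 and 1.58 at 2, 4 and 6 h, and 17 of the 29 were at least 2-fold at each time (3.24% over all genes, and 133 of 218 or 61.0% over all genes with a P-factor mean of at least 1). Of the 61 genes, 37 were 2-fold at each time in at least 1 course and 10 in both. As with M-factor, 7 genes had a mean of 2 or more and 12 lay between 1 and 1.2. The highest time was 2 h in 3, 4 h in 21 and 6 h in 5 of the 29. With M-factor it was 2 h in 11, 4 h in 20 and 6 h in 22 of the 53. These are single arrays, and the M-factor 2 h array also differed from all others in having the treated RNA in Cy5, so time and dye cannot be told apart in that course. On that array 45 of the 53 were at least 2-fold, which the rule favours. Among the P-factor arrays the median SD of a gene's spots was largest at 4 h (0.34, against 0.23 at 2 h and 0.19 at 6 h). The split of highest times and the share past 2-fold at 2 h were not computed over all genes, so these counts are a description only.

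With M-factor, 11 of the 53 stood at least 1 higher on the log2 scale at 6 h than at 2 h. The largest difference was in SPAC17A5.05c (1.94), followed by SPAC10F6.15 (1.61), at 0.52, 1.19 and 2.13, and SPCP20C8.01c (1.38), at 1.06, 1.74 and 2.44. With P-factor 2 of the 29 differed as much, SPBC354.04 (1.03) and SPAC19G12.09 (1.02), and SPCPB1C11.02 came next (0.99). The shares of all genes with such differences, up or down, were not computed, so these counts are a description only. Of the 53, 1 stood at least 1 lower at 6 h than at 2 h. This gene, SPAC25B8.08, stood at 1.66, 1.11 and 0.29 with M-factor, a difference of -1.37, and at 0.61, 0.39 and 0.23 with P-factor. SPAC2C4.09 stood at 0.97, 0.68 and -0.10 with M-factor against 1.59, 1.26 and 0.78 with P-factor, so both courses were highest at 2 h. SPAC24B11.14 stood at 1.32, 0.95 and 0.35 with M-factor but at 0.75, 1.33 and 1.01 with P-factor. The remaining differences from 2 to 6 h below 0 that were largest with P-factor were -1.02 in SPBPJ4664.02 and -0.74 in SPAC4G9.19.

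**Figure D2:**
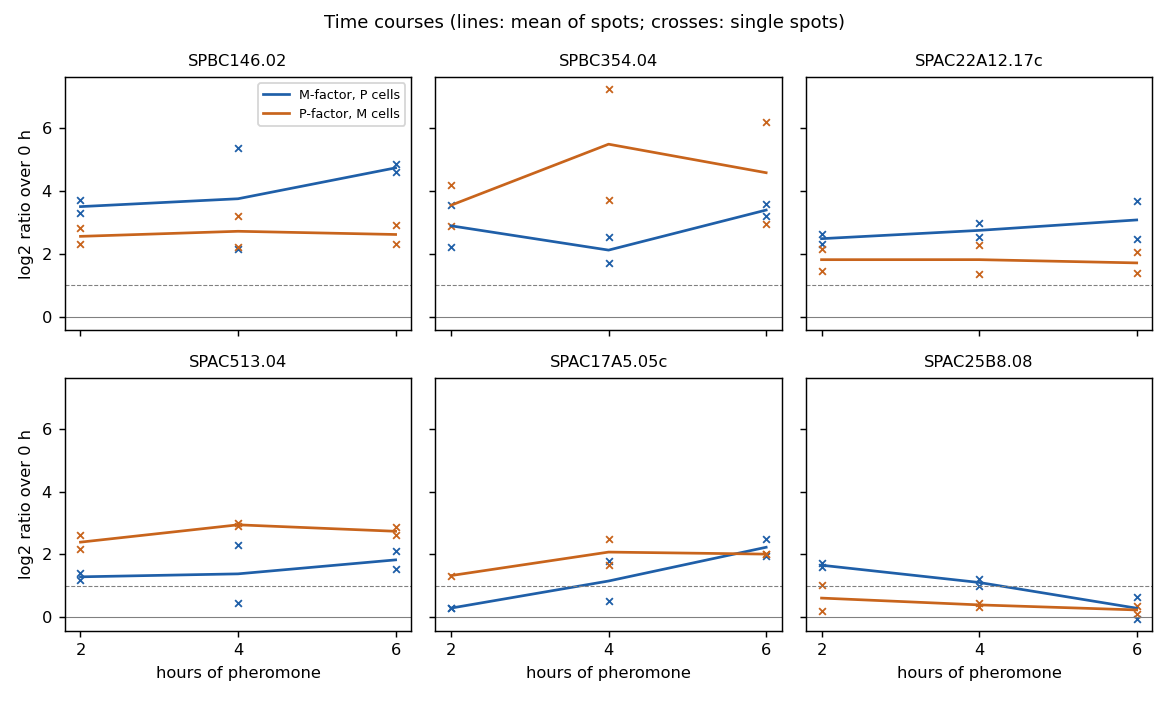
Log2 ratio over untreated RNA (y axis) at 2, 4 and 6 h of pheromone (x axis) for 6 of the genes, M-factor in blue and P-factor in orange; lines join the mean of the spots, crosses are single spots, and the dashed line is 2-fold. SPAC17A5.05c went from 0.29 to 2.23 with M-factor and SPAC25B8.08 from 1.66 to 0.29, while the spots of SPBC354.04 with P-factor and of SPBC146.02 and SPAC513.04 at 4 h of M-factor lay far apart.

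The spots of the strongest genes did not always agree. All 61 genes had 2 spots, and the largest gap between spots on any array had a median of 1.11 over the 60 genes with a gap. In SPBC354.04 the P-factor 4 h value of 5.49 came from spots at 7.26 and 3.72. In SPBC146.02 the M-factor 4 h value of 3.75 came from spots at 5.35 and 2.15, and in SPBC405.02c the largest gap was 2.41, also at 4 h of M-factor. A gap of at least 2 occurred in 5 genes and every gap was under 1 in 24. Both spots, where complete, had a mean of at least 1 in 38 of the 53 genes and 27 of the 29, 22 genes had an array read from 1 spot, and no spot of these genes was at the lowest recorded value.

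Whether the genes chosen with one pheromone also responded to the other can be tested, because the courses come from different strains and share no reference RNA. Of the 53 genes chosen with M-factor, 50 had a complete P-factor course. With P-factor, 40 of the 50 rose and 0 fell in limma at an adjusted p of at most 0.05, against 18.1% of 4094 genes that rose over the whole table. The background is matched more closely by the other genes with an M-factor mean of at least 1, of which 205 of 266 (77.1%) rose with P-factor, so the share of 80.0% is close to that of other genes chosen in the same way and is no feature of the unnamed ones. The median P-factor mean of the 50 was 0.80, against -0.02 over all genes. It was 1.00 over the 265 genes with a symbol that M-factor chose in the same way and that had a complete P-factor course. Leaving out the P-factor 4 h or the 6 h array gave 25 of 50 each, where 7.56% and 9.3% of all genes rose, and leaving out 2 h gave 32 of 52, where 547 of 4487 genes rose. The one-sample test over time points that the study's methods name gave 0 of 50 after Benjamini-Hochberg adjustment, where it called 3 genes of the whole table, and 32 of 50 without adjustment.

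The P-factor means of the called genes ran from 4.54 ± 0.34 (SE, n = 3 time points, adjusted p = 6.2e-05 in limma) in SPBC354.04 down to 0.45 ± 0.15 (adjusted p = 0.0474) in SPAC57A10.08c. SPAC513.04 had the smallest adjusted p (2.69 ± 0.17, 2.93e-05). Of the 40, 19 stood below a mean of 1 with P-factor, among them SPBC405.02c (0.71 ± 0.18, adjusted p = 0.016) and the zinc finger gene SPAC19B12.07c (0.66 ± 0.16, adjusted p = 0.013).

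The 10 genes not called with P-factor had means of -0.14 to 0.59. SPAC16A10.01 stood at 1.10, 1.31 and 0.88 with M-factor against -0.10, -0.42 and 0.11 with P-factor (mean -0.14 ± 0.16, adjusted p = 0.527 in limma). SPBPJ4664.02 stood at 0.95, 2.07 and 2.08 with M-factor against 0.53, -0.11 and -0.49 with P-factor (mean -0.03 ± 0.26, adjusted p = 0.942). SPCC18.02 stood at 1.24, 1.08 and 1.06 and at -0.05, 0.28 and -0.19 (mean 0.01 ± 0.15, adjusted p = 0.954). In these 3 the P-factor values scattered on both sides of 0 and lay below every M-factor value, and the sign of the P-factor mean turned without the 4 h array (to 0.01, 0.02 and -0.12) and, in SPBPJ4664.02, without the 6 h array (to 0.21). SPAC14C4.04 stood at 1.06, 1.72 and 1.40 with M-factor against 0.19, 0.06 and 0.13 with P-factor (mean 0.13 ± 0.16, adjusted p = 0.559). It lies next to mek1, a meiotic kinase gene, which had means of 2.96 and 2.40, and it overlaps man1. SPBC20F10.02c (0.22), SPBP4H10.14c (0.23) and SPAC25B8.08 (0.41) had adjusted p-values of 0.507, 0.239 and 0.191. SPAPB2B4.07 (0.39, adjusted p = 0.0558), SPAC630.04c (0.46, adjusted p = 0.0668) and SPCP20C8.03 (0.59, adjusted p = 0.0995) were positive at each P-factor time and passed the threshold once the time point was fitted as a block (adjusted p = 0.0461, 0.0341 and 0.0142).

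All 29 genes chosen with P-factor had a complete M-factor course. With M-factor 26 rose and 0 fell, against 24.1% of 4094 genes over the whole table and 160 of 188 (85.1%) of the other genes with a P-factor mean of at least 1; here the share was 89.7%. Their median M-factor mean was 1.35, against -0.02 over all genes. Each array left out in turn gave 26 again, and the one-sample test gave 0 of 29 after adjustment, where it called 4 genes of the whole table, and 22 without. The M-factor means of the 26 ran from 3.99 ± 0.22 (SE, adjusted p = 1.13e-05) in SPBC146.02 down to 0.87 ± 0.20 (adjusted p = 0.00654) in SPAC24B11.14. SPAC56F8.15 stood at 0.78, 1.22 and 1.59 with P-factor and -0.52, -0.56 and 0.48 with M-factor (mean -0.20 ± 0.23, adjusted p = 0.494 in limma). SPBC32H8.01c stood at 0.89, 1.21 and 1.09 with P-factor and 0.16, 0.40 and 0.39 with M-factor (mean 0.32 ± 0.14, adjusted p = 0.0912). SPAC2C4.09 (0.52 ± 0.23, adjusted p = 0.0856) passed with the time point as a block (adjusted p = 0.0156). So of the 8 genes chosen by P-factor alone, 5 rose with M-factor below the 2-fold line.

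**Figure D3:**
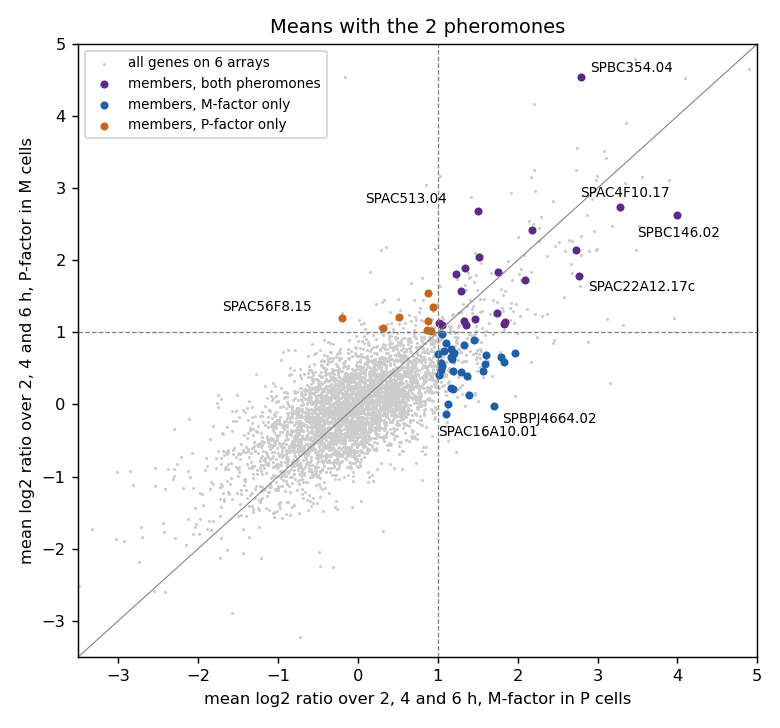
Mean log2 ratio over 2, 4 and 6 h with M-factor in P cells (x axis) against P-factor in M cells (y axis) for the 58 genes with both courses, coloured by the pheromone that chose them, over all genes with 6 values in grey (axes end at 5 and -3.5); dashed lines are 2-fold and the diagonal is equality. Most of the 58 lie right of the diagonal, SPBC354.04 and SPAC513.04 lie above it, and SPBPJ4664.02 and SPAC16A10.01 lie near 0 with P-factor.

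Set side by side, the M-factor mean was above the P-factor mean in 40 of the 58 genes with both and below it in 18, differences the rule itself shapes, since M-factor chose more genes. The means lay within 0.5 of each other in 22 genes and at least 1 apart in 13. By the means of spots, every M-factor array was above every P-factor array in 24, and the reverse held in 5. The rule favours such separation, and its share over all genes was not computed, so these counts are a description only. The largest differences of M-factor minus P-factor were 1.72 in SPBPJ4664.02, 1.37 in SPBC146.02, 1.27 in SPAC14C4.04 and 1.25 in SPBC405.02c. In the other direction they were -1.74 in SPBC354.04, -1.40 in SPAC56F8.15, -1.19 in SPAC513.04 and -0.74 in SPBC32H8.01c. The genes differ also in strain, since each pheromone was given to the cell type that senses it, so pheromone and cell type cannot be told apart.

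The M over P arrays did not enter the rule. Each is a single array, so their values have no replicate check and no test. In untreated cells the 61 genes lay between -0.51 and 1.41, with a median of 0.02. Past 2-fold were 3 genes, all higher in M cells, where 0.842% of all genes were past 2-fold either way. These values were read as natural log, the base with which the study's table is met; as log2 values 0 would be past 2-fold. Past 1.5-fold were 6 genes, again all higher in M cells (2.46% of all genes either way). The 3 were SPAC22A12.17c (1.41), SPBPJ4664.02 (1.17) and SPAC513.04 (1.01), followed by SPCP20C8.03 (0.78). SPAC513.04 and SPBPJ4664.02 lie next to mfm2 and mfm3, genes for the M-factor precursor that M cells express. The study states that its arrays do not hold these short genes, so they have no values here. Lower in M cells were SPBC19C7.04c (-0.51), SPAC57A10.07 (-0.23), SPBC15D4.11c (-0.20) and SPAC31G5.21 (-0.17). Within 0.2 of equality lay 68.9% of the 61 genes and 72.1% of all genes.

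After 6 h of pheromone the genes lay between -0.50 and 0.62, with 0 of 61 genes past 2-fold (0.442% of all genes) and 1 past 1.5-fold (1.03%). The log base of this array was taken as natural log, which is likely but not settled; read as log2 its values would be smaller. SPAC513.04 was still higher in M cells (0.62), and SPAC56F8.15 followed (0.57), then SPAPJ691.02 (0.36) and SPBP4H10.14c (0.34). SPAC14C4.04 (-0.50) and SPBC32H8.01c (-0.43) were lower in M cells, then SPAC57A10.07 (-0.15) and SPAC9G1.08c (-0.13). The dehydrogenase gene SPAC22A12.17c went from 1.41 untreated to 0.05, and SPBPJ4664.02 from 1.17 to -0.02. Both had stood higher with M-factor in P cells than with P-factor in M cells.

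**Figure D4:**
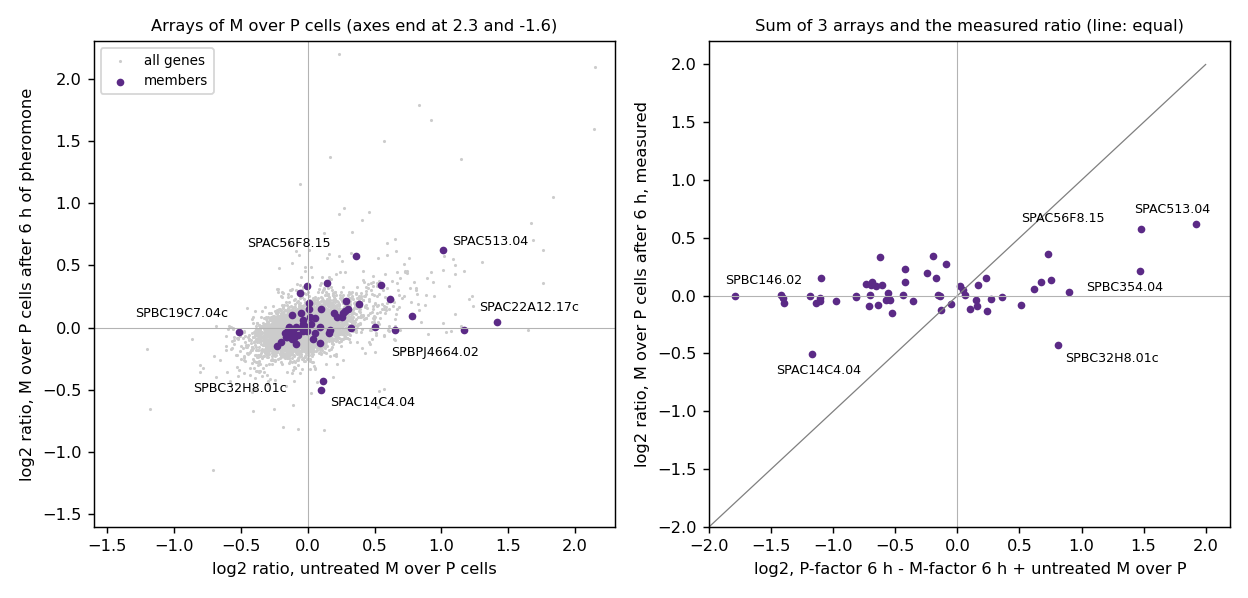
Left, log2 ratio of M over P cells untreated (x axis) and after 6 h of pheromone (y axis) for the 61 genes (purple) and all genes (grey); right, for 60 of the genes, the ratio after 6 h summed from 3 other arrays (x axis) against the measured one (y axis), with the line of equality. The genes spread from -0.51 to 1.41 untreated but from -0.50 to 0.62 after 6 h, and on the right they form a flat band from -1.80 to 1.92 along the x axis.

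The 6 h ratio can also be computed from 3 other arrays, as P-factor 6 h minus M-factor 6 h plus untreated M over P. Over the 60 genes with all 3 values the sum ran from -1.80 to 1.92, wider than the measured ratio, and the median gap to it was 0.57. Across genes the sum and the measurement correlated with r = 0.40 and rho = 0.24, against r = 0.37 over 4598 genes; genes are not independent replicates, and the sum and the measurement come from shared RNA. For SPAC22A12.17c the sum and the measured ratio were both 0.05. In the other genes with large differences the measured ratio was smaller. SPAC513.04 gave 1.92 and 0.62, and SPAC56F8.15 gave 1.48 and 0.57. SPAC14C4.04 gave -1.17 and -0.50. In these 3 the sign was shared, and they were the 3 of 13 genes with a sum beyond 1 in size whose measured ratio reached 0.5 with the same sign. SPBC146.02 gave -1.80 and 0.00, SPBPJ4664.02 gave -1.41 and -0.02, and SPBC354.04 gave 1.47 and 0.21. SPBC32H8.01c differed in sign, at 0.81 and -0.43. The differences between the courses of these genes were therefore for the most part not seen at their full size on the direct array. This was not particular to them. The M marker mam2 stood at 4.79 with P-factor and -0.57 with M-factor at 6 h and at 1.65 untreated, against 3.05 on the direct array. Not all markers showed it: map3 stood at -0.03, -0.09 and -1.23 on the same arrays, against -3.53.

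Only 2 of the genes are neighbours of each other. SPAC57A10.07 and SPAC57A10.08c are adjacent and overlap, and had means of 1.33 and 1.29 with M-factor against 1.16 and 0.45 with P-factor. Of 60 genes with a measured neighbour, 10 (16.7%) had one with a mean of at least 1 in either course, against 15.7% of all genes. Among these neighbours were ams1, an alpha-mannosidase gene beside SPAC513.04, with means of 3.28 and 2.93, and mde10 beside SPAC17A5.05c, with means of 1.40 and 1.44. Of the 61 genes, 27 (44.3%) overlapped a protein-coding gene in the RefSeq annotation, against 43.2% of all genes. One of them, SPBC405.02c, overlaps ade1, which stood at -2.03 and -1.43 while SPBC405.02c stood at 1.97 and 0.71.

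The rule is a line through a continuous range. Just inside it were SPAC18B11.03c, with an M-factor mean of 1.001, SPAC25B8.08 (1.02 with M-factor) and SPBC15D4.11c (1.02 with P-factor). Just outside were SPAC1039.08 and SPAC15A10.07, each with a P-factor mean of 0.997, and SPCC569.03, with an M-factor mean of 0.992. The single arrays of SPAC18B11.03c stood at 1.24, 1.23 and 0.53 and those of SPAC1039.08 at 1.09, 1.13 and 0.77, so genes on either side of the line cannot be told apart by their spread.

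For comparison, the mating pathway was read from a list of 23 genes, some of which the study had named on these arrays. M-factor called 18 of the 23 up and 0 down, and P-factor 17 up and 1 down, by the same test and against the same 24.1% and 18.1% of all genes. The median means of the list were 1.44 with M-factor against 1.73 with P-factor, against -0.02 for each over all genes. The gene called down with P-factor was ste6 (-0.68, adjusted p = 0.0181 in limma). The P-factor receptor gene mam2 stood at 4.54 with P-factor and -0.16 with M-factor, and the P-factor precursor gene map2 at 0.29 and 3.16. The M-factor receptor gene map3 was called with neither pheromone, at -0.08 with P-factor and -0.35 with M-factor. This differs from the study, which reports map3 as induced by M-factor selectively and also measured it by real-time PCR in starved cyr1+ cells. On the M over P arrays map3 stood at -1.23 untreated and -3.53 after 6 h. The cause of the difference was not tested. The MAP kinase gene spk1 stood at 3.52 with M-factor against 2.48 with P-factor, and ste11 at 1.92 and 1.72. On the same scale SPBC146.02 (3.99) stood above spk1 with M-factor, and SPBC354.04 (4.54) was level with mam2 with P-factor, which compares differences from untreated cells and not levels.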

How the data were processed

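RNA of 8 comparisons was measured on 2-colour arrays of PCR products. The authors read the spots in Imagene 4.2 and applied lowess normalisation in GeneSpring; the genome build is not given in the sources used here. The authors deposited log2 values of channel 1 over channel 2 for the M-factor 2 and 4 h arrays and natural log values for the others, which were divided by ln 2. Bases were found by recomputing mean fold changes of the study's gene table. The tolerance was 2%, or a small fixed margin for low fold changes. It was met by 152 of 155 entries with M-factor and 121 of 155 with P-factor, and no other set of bases gave more than 13. The untreated M over P array met that table's ratio in 155 of 155 entries as natural log of channel 1 (M cells by the labels) over channel 2, and in 52 as log2, although the table heads the ratio as P over M. For the M over P array at 6 h no such check could be made. Treated RNA carried Cy5 at 2 h of M-factor and Cy3 otherwise; all ratios are treated over untreated, or M over P. The number of columns not used was 0.

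Of 11520 spots, 9522 had 1 symbol, 134 several and 1864 none. A gene's spots were averaged as log2 ratios, giving 4752 genes. SPAC1565.03 and SPAC11H11.03c were left out by the rule. The 4094 genes with all 6 time course values were fitted in R 4.3.3 by limma 3.58.1 (lmFit, eBayes), 1 mean per pheromone and 1 shared spread, 2-sided, adjusted by Benjamini-Hochberg at 0.05; standard errors are those of the fit. In simulated data for M-factor with 4094 genes, 77 of 100 genes changed 2-fold and 98 of 100 changed 4-fold were recovered, with 4 false calls up. The simulated noise was independent between arrays. Errors shared through the untreated reference or the time point were left out, so the false calls in the real data are not measured by it. Same-time arrays of the courses deviated together from their group means (r = 0.35, 0.105 and 0.349 at 2, 4 and 6 h, against at most 0.037 for unlike times), and the time point, which thus pairs them, was also fitted as a block. The M over P arrays, 1 each, were not tested. The rest was done in Python 3.11.15 (pandas 2.3.3, numpy 2.4.6, matplotlib 3.10.9). RefSeq annotation (ASM294v3) was used for names, gene types and neighbours only, and products and Ste11 sites were taken from the study's gene table.

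Named genes are the 12 largest means with each pheromone, the 4 largest differences of the means each way, the 4 largest ratios each way on each M over P array, the 3 largest changes from 2 to 6 h each way per course, the 3 nearest the threshold on each side, genes with an exact printed site, genes adjacent to another of the 61, the 3 largest spot gaps and up to 3 per product group. The rule asked for sites in a promoter window, for which printed sites were used instead. Also named, after their values were seen, were all genes not called in the other course, SPAPB1A11.02 and the ends of the called ranges. The members and lists were chosen with earlier results of these data known. Alternatives changed the threshold, spots, missing values, centring, log base, floor, fit, test and arrays used.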

Additional observations from a re-analysis of the deposited data

How the results depend on the processing

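The number of unnamed genes that met the rule depended on the threshold, with 177 at 1.5-fold, 22 at 3-fold and 37 when 2-fold was asked at each of 3 times, and on the log base, with 95 when all arrays were read as natural log and 45, a loss of 16, when all were read as log2. Leaving out 1 array gave 58 to 70. Of the genes chosen with M-factor, 17 of 50 rose with P-factor when limma tested against 1.5-fold (treat, 3.42% of all genes), 0 by the methods' t-test after adjustment, and 25 to 43 without 1 array, with 25 both without the P-factor 4 h and without the 6 h array. Of those chosen with P-factor, 17 of 29 rose with M-factor by treat (5.59% of all genes), 0 by the t-test and 26 without any 1 array. Of the mating list 11 rose with M-factor by treat, and 0 with either pheromone by the t-test; without 1 array 16 to 18 rose with M-factor and 15 to 18 with P-factor. The time point as replicate block gave 43 and 27 for the unnamed genes and 18 and 18 for the list (20.4% of all genes with P-factor and 26.4% with M-factor), and changed no call of an unnamed gene other than the 4 named with it. Between untreated M and P cells, 6 genes were past 1.5-fold, 0 past 3-fold and 0 past 2-fold with the array read as log2; after 6 h, 1 was past 1.5-fold. The cause of these changes was not tested beyond what each setting does by its construction. No mean of at least 1 and no call changed direction; 3 uncalled P-factor means near 0 turned sign, as given with them. Over single genes, 952 calls kept their side of the threshold under an alternative, 140 no longer passed and 14 newly passed. The counts of Ste11 sites in a promoter window and their 3 alternatives were not run, since no promoter sequence was used here. Few arrays and unknown intensities limit the precision.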
